A study of Mus musculus with 15 samples.

Results

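Small RNA libraries from the hypothalamus of juvenile mice at postnatal day (PND) 14 were set against libraries from adults at PND56, to ask which mature microRNAs (miRNAs) differ between the weeks before puberty and the time after it. The comparison held 10 of the 15 libraries of the series, 5 from PND14 (week 2, before puberty) and 5 from PND56 (week 8, after puberty), chosen by the age in their labels and by no measured value. All mice were females of the inbred strain C57BL/6JOlaHsd and the labels name no treatment. The other 5 libraries, from PND35 (week 5, during puberty), entered the same fit and are given beside the result where they place a difference in time. Replicates 1 to 3 of each age carry week names in the deposited table and replicates 4 and 5 plain numbers. What this naming stands for is not given in the sources used here, and naming style was a term of the fit. Whether each library of an age came from an animal of its own is not in the labels. The p-values therefore reflect only how far these samples spread, and that spread may be technical.

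A miRNA is a short RNA cut from 1 arm (5p or 3p) of a folded hairpin transcript. It guides an Argonaute protein to messenger RNAs through its seed, bases 2 to 8, and represses them, so miRNAs that share a seed share many targets. The hypothalamus holds neurons that control growth, feeding and reproduction, among them the neurons that release gonadotropin-releasing hormone (GnRH), whose activity starts puberty. Between the second week and adulthood its fibre tracts are myelinated by oligodendrocytes and its neurons complete their synapses.

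The sequences that the results turn on are shown first, grouped by seed, from RefSeq (build GRCm38.p6, the same assembly as mm10). Capitals mark the seed. Members without an entry in that table are named only. Positions of single miRNAs are those of the mature sequence. The first pair is the oligodendrocyte pair. Its miR-219a-5p lies at chr17:34025052-34025072 (minus strand, within an exon of the long non-coding RNA Gm26940) and at chr2:29845689-29845709 (minus strand, between annotated genes). Its miR-338-3p lies at chr11:120014781-120014802 (minus strand) in an intron of Aatk.
miR-219a-5p: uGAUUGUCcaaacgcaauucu
miR-338-3p: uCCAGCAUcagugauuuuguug
The miR-29 guides, which repress collagens, share a seed, and so do miR-30a-5p (chr1:23272274-23272295, plus strand), miR-30e-5p (chr4:120772660-120772681, minus strand, intron of Nfyc), miR-30c-5p and miR-384-5p.
miR-29a-3p: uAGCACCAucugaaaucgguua
miR-29b-3p: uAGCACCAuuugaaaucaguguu
miR-29c-3p: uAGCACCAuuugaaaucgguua
miR-30a-5p: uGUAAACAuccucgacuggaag
miR-30c-5p: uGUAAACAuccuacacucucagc
miR-30e-5p: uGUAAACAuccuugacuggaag
miR-384-5p: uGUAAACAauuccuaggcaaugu
The miR-34 and miR-449 miRNAs share a seed and moved in opposite directions. They are made from different places, miR-34a-5p at chr4:150068473-150068494 (plus strand, between annotated genes) and miR-449a-5p at chr13:113037549-113037570 (plus strand, intron of Cdc20b).
miR-34a-5p: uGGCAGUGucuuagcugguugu
miR-34b-5p: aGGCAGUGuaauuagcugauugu
miR-449a-5p: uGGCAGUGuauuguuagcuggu
miR-449c-5p: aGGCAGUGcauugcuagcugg
The miR-15/16 seed was also split, with miR-322-5p (chrX:53054306-53054327, minus strand, between annotated genes) and miR-15b-5p against miR-16-5p and miR-195a-5p.
miR-15b-5p: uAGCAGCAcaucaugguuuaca
miR-16-5p: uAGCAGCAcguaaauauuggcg
miR-195a-5p: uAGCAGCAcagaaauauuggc
miR-322-5p: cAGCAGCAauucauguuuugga
Members of the miR-17 seed and of the miR-130 seed, both linked to proliferating or immature tissue, are shown because their differences depended on which libraries were compared.
miR-17-5p: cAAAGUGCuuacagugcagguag
miR-20a-5p: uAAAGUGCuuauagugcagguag
miR-93-5p: cAAAGUGCuguucgugcagguag
miR-106b-5p: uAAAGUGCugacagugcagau
miR-130a-3p: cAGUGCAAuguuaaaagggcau
miR-130b-3p: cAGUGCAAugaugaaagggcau
miR-301a-3p: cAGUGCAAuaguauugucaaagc
The last set holds miR-323-3p (chr12:109712558-109712578, plus strand) and miR-409-3p of the imprinted Dlk1-Dio3 region, and the activity-induced neuronal pair miR-132-3p and miR-212-3p, which share a seed.
miR-323-3p: cACAUUACacggucgaccucu
miR-409-3p: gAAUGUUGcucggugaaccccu
miR-132-3p: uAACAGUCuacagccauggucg
miR-212-3p: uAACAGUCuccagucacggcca

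Counts per library were whole numbers per mature miRNA, with totals from 6722608 to 16153673 over the 15 libraries. In the 10 compared, 1088 to 1275 miRNAs were detected, which here means any count above 0. A floor of 3 counts corresponds to at most 0.446 counts per 1000000 (CPM). Levels below are CPM after TMM scaling, which sets a common scale from the bulk of miRNAs, and 704 of 1842 miRNAs passed the filter on low counts. The miRNAs of brain were high in each of the 10 libraries, with miR-9-5p at 92103 to 140896 CPM and miR-124-3p at 4036 to 21827 CPM. MiR-7b-5p, which is abundant in the hypothalamus, was at 32572 to 69724 CPM, and no list used here tells the hypothalamus from other forebrain. Detected miRNAs numbered 1123 ± 37.8 (SD, n = 5) at PND56 and 1211 ± 44.1 (n = 5) at PND14, a difference that did not pass after adjustment over 4 measures of composition (exact two-sided permutation p = 0.0159, adjusted 0.0635). The most abundant miRNA took 10.7% of counts at PND56 and 13.7% at PND14 (adjusted exact permutation p = 0.0952).

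From PND14 to PND56, 315 of the 704 miRNAs tested changed (44.7%; edgeR quasi-likelihood F test, Benjamini-Hochberg adjusted p below 0.05), 155 of them higher (22%) and 160 lower (22.7%) in the adult. Examples of large differences were increases of miR-219a-5p (log2 fold change 4.59), miR-338-3p (8.22-fold) and miR-29b-3p (6.27-fold) and decreases of miR-449a-5p (13.3-fold) and miR-323-3p (9.24-fold). Most differences were modest: 171 of the 315 were under 2-fold, 144 were at least 2-fold (64 higher and 80 lower) and 19 at least 4-fold. The 5 libraries of each age did not overlap for 142 of the 704 miRNAs (20.2%), 68 of them higher at PND56. In 81 of the called miRNAs the mean was under 10 CPM at both ages, while 63 of the 112 miRNAs with at least 1000 CPM at either age were called. The miRNAs called higher together took 21.6% of PND14 counts and 36.0% of PND56 counts, and those called lower 24.3% and 14.8%. The median log2 fold change over all 704 was -0.01. With scaling to total counts in place of TMM it was -0.19 and the calls were 105 higher and 204 lower, so directions below are relative to the median of all miRNAs. In bulk tissue, fewer cells of a type and less RNA per cell cannot be told apart.

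The oligodendrocyte miRNAs rose, with the highest median change of the 10 cell type lists. MiR-219a-5p and miR-338-3p repress genes that hold oligodendrocyte precursors back from maturing. Of the 9 members tested, 8 were higher at PND56 and none lower, with a median log2 fold change of 1.96. MiR-219a-5p stood at 6.06, 15.3, 13.0, 3.49 and 3.63 CPM in PND14 replicates 1 to 5 and at 157, 166, 230.3, 157 and 173 CPM in those of PND56. The highest juvenile library lay far below the lowest adult one, and edgeR gave 4.59 ± 0.34 on the log2 scale (± SE, adjusted p = 2.74e-08). MiR-338-3p was at 455, 677, 889, 686 and 911 CPM at PND14 and at 5024, 7357, 6183, 5677 and 5575 CPM at PND56. These groups did not overlap either (log2 fold change 3.04 ± 0.19, adjusted p = 9.63e-09 by edgeR). MiR-3065-5p is read from the strand opposite miR-338-3p, with 21 bases in common, and rose by 1.56 ± 0.17 on the log2 scale at 0.0129 to 0.0799 of its level. The counts of miR-219b-3p, which lies opposite miR-219a-5p over 21 bases, were 1 to 1.03 times those of miR-219a-5p. These rows therefore cannot be told apart, and both are among the 8 called higher and enter the median.

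The other arms of the miR-219a hairpins moved less. MiR-219a-2-3p went from 2217 ± 1559.8 CPM (SD, n = 5) to 2882 ± 1078 CPM, a log2 difference of 0.55 ± 0.19 (adjusted p = 0.0311 by edgeR), and the libraries of the ages overlapped. Its level followed naming style, at 960.1 to 1357 CPM in PND14 replicates 1 to 3 and 3375 and 4371 CPM in replicates 4 and 5. The call ended when any 1 library other than PND14 replicate 5 or PND56 replicate 4 was left out, at values of 0.39 to 0.57. MiR-219a-1-3p was the 1 member not called (-0.59, adjusted p = 0.081 by edgeR), and was lower without PND14 replicate 3 (-0.78, 0.0194). The list as a whole summed to 1426 to 5456 CPM at PND14 and 7866 to 10279 CPM at PND56.

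**Figure D1:**
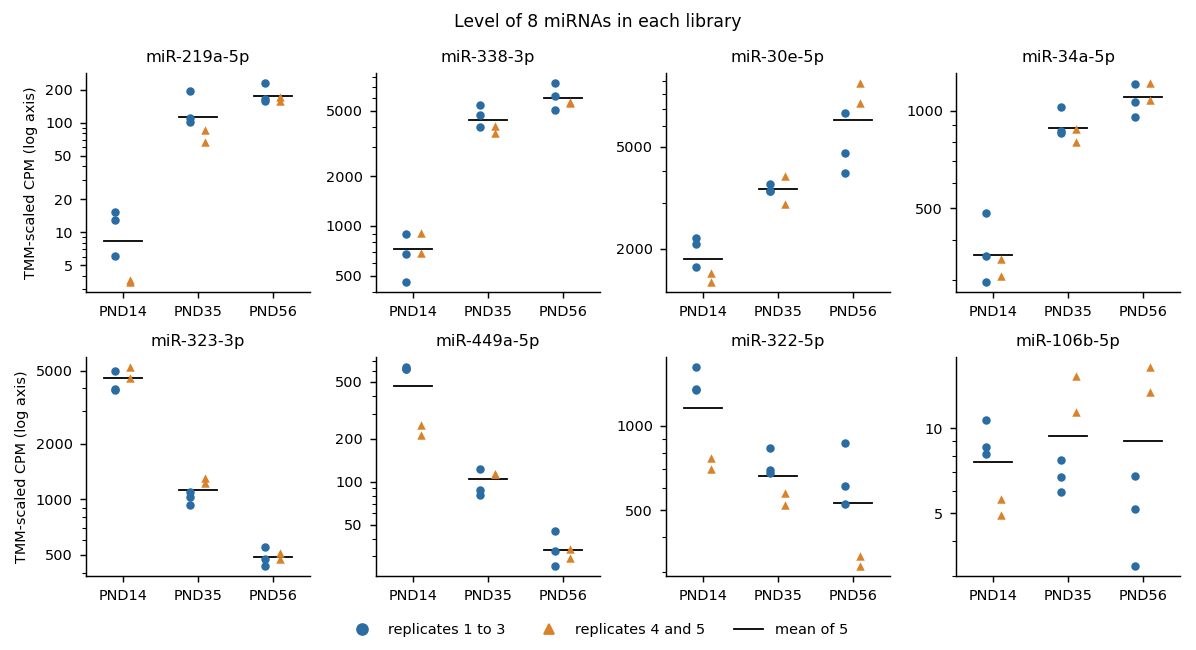
TMM-scaled CPM (log axis) of 8 miRNAs in each library at PND14, PND35 and PND56; circles are replicates 1 to 3, triangles replicates 4 and 5 and bars the mean of 5. The PND14 and PND56 libraries of miR-219a-5p, miR-338-3p, miR-449a-5p and miR-323-3p do not overlap.

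The miR-29 family, known for repressing collagens and DNA methyltransferases, rose as a whole: 7 of 7 members were higher without overlap, with a median log2 fold change of 2.01. MiR-29b-3p went from 5396 ± 2101 to 33062 ± 9283 CPM (SD, n = 5).

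The miR-30 family rose in the adult, 7 of its 11 tested members being higher and none lower (median log2 fold change 0.73). MiR-30e-5p was at 1689.7, 2090.2, 2206, 1477 and 1605 CPM in PND14 replicates 1 to 5. At PND56 it was at 3928, 4702, 6754, 8843 and 7406 CPM. The ages did not overlap (log2 fold change 1.78 ± 0.20, adjusted p = 2.44e-06 by edgeR), with PND14 replicates 4 and 5 the lowest juvenile libraries and PND56 replicates 4 and 5 the highest adult ones. MiR-30a-5p rose by 1.52 ± 0.18 (1991 to 5775 CPM), miR-30c-5p by 1.23 ± 0.19, miR-30d-5p by 1.06 ± 0.14 and miR-30b-5p by 0.88 ± 0.28. The miR-30b-5p call ended without PND14 replicate 4 or 5 (adjusted p = 0.0704 and 0.0665). All 4 tested miRNAs shown above with the seed GUAAACA, miR-384-5p included, were higher without overlap, and their median was 1.37. MiR-30b-5p and miR-30d-5p are not among these 4. The family summed to 10014 to 11794 CPM in the juvenile libraries and 17552 to 32872 CPM in the adult ones.

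Let-7 and miR-23/27/24 miRNAs rose in part. Let-7, which represses growth genes and accumulates as tissues mature, had 11 of 22 members higher and 1 lower, let-7c-1-3p (-0.53 ± 0.15), with a median of 0.39. Of the 22 rows 21 are distinct, since let-7a-1-3p and let-7c-2-3p hold the same counts, and 3 did not overlap between the ages. The family summed to 95014 to 223807 CPM at PND14 and 150953 to 208508 CPM at PND56, ranges that overlap. Its main seed, GAGGUAG, had a median of 0.47 in replicates 1 to 3 and -0.0072 in the others. Let-7g-5p went from 7393 ± 963 to 14548 ± 3744 CPM (0.94 ± 0.15, adjusted p = 9.17e-05 by edgeR) and let-7d-5p from 5359 ± 546 to 8482 ± 1419 CPM (0.65 ± 0.10). Without PND14 replicate 4 the let-7 count fell to 7 and without PND14 replicate 5 to 6. It was 6 higher and 2 lower with total-count scaling, 4 and 1 without the naming style term, and 7 and 4 in replicates 4 and 5 alone. In the paralogous miR-23/27/24 clusters 6 of 8 members were higher and none lower (median 0.95), with 1 lower without PND14 replicate 3 or PND56 replicate 1. MiR-23a-3p was at 494 to 557 CPM in the juvenile libraries and 1083 to 1394 CPM in the adult ones. That is a log2 fold change of 1.19 ± 0.10 (adjusted p = 9.64e-08 by edgeR) with a spread within each age that was small against it. MiR-23b-3p (1.05 ± 0.10), miR-24-3p (0.94 ± 0.12) and miR-27b-3p (0.76 ± 0.12) followed.

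**Figure D2:**
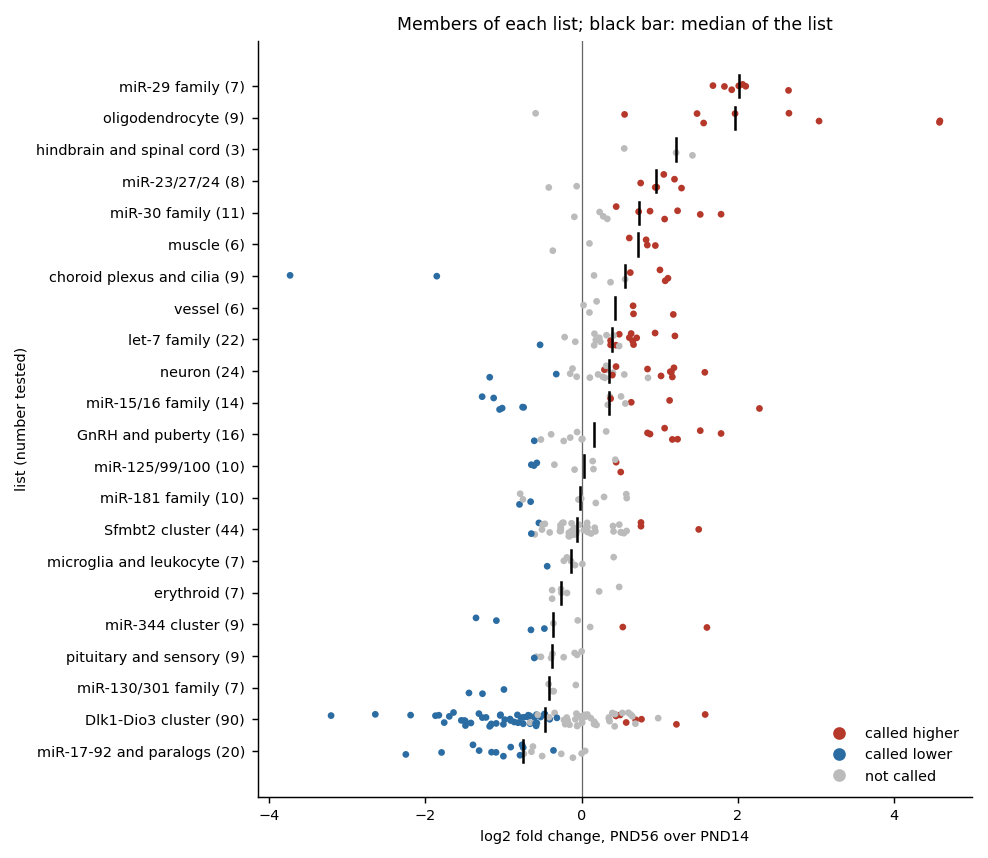
Log2 fold change of PND56 over PND14 for each tested member of each list, with the number tested in brackets, points coloured by call and a black bar at the list median. The miR-29 family and the oligodendrocyte list have the highest medians among lists of more than 3 members (2.01 and 1.96), and the miR-17-92 list the lowest (-0.76).

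Neuronal miRNAs changed in both directions, and their counts stand against 22% higher and 22.7% lower over all tested miRNAs. Of 24 tested, 10 were higher and 2 lower at PND56 with a median of 0.35, and 6 were higher without PND14 replicate 4 or with total-count scaling. MiR-212-3p, which neuronal activity induces together with miR-132-3p from 1 transcript, rose from 107 ± 31.1 to 238 ± 64.1 CPM (SD, n = 5; 1.16 ± 0.15, adjusted p = 1.57e-05 by edgeR) without overlap. MiR-132-3p stood at 1651, 2062, 943, 4272 and 5036 CPM at PND14 and at 5638, 1469, 2245, 6314 and 8121 CPM at PND56. The ages overlapped, with a difference of 0.84 ± 0.31 (adjusted p = 0.0347 by edgeR). That call ended when PND14 replicate 1, 3 or 4 or PND56 replicate 1 or 5 was left out (adjusted p 0.0657 to 0.143). MiR-153-3p, which represses synaptic vesicle proteins, rose by 1.15 ± 0.22. MiR-124-3p, the most typical neuronal miRNA, was not called (0.55 ± 0.32, adjusted p = 0.183 by edgeR), and was called without PND14 replicate 2 or PND56 replicate 2 (0.0367 and 0.0255).

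The 2 neuronal miRNAs that fell were miR-9-5p and miR-488-3p. MiR-9-5p, which acts in neural progenitors and young neurons, went from 128345 ± 7137 to 102422 ± 8942 CPM (SD, n = 5; -0.33 ± 0.08, adjusted p = 0.00349 by edgeR). MiR-488-3p had 532 ± 162 CPM in the juveniles and 246 ± 121 CPM in the adults (-1.18 ± 0.17).

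The choroid plexus and cilia list held members that moved in opposite directions, with 4 of 9 higher, 2 lower, a median of 0.56 and a mean of -0.08. Over all tested miRNAs 22% were higher and 22.7% lower, so the share of the list called lower was near that of all. MiR-449a-5p, abundant in cells that grow motile cilia, was at 618, 634, 615, 249 and 212 CPM in PND14 replicates 1 to 5 and at 25.6, 45.0, 32.7, 29.0 and 33.6 CPM in those of PND56. The ages did not overlap (-3.73 ± 0.29, adjusted p = 5.72e-08 by edgeR), and the juvenile libraries fell into a high set, replicates 1 to 3, and a low set, replicates 4 and 5. MiR-449c-5p from the same intron of Cdc20b fell from 3.68 ± 0.781 to 1.01 ± 0.393 CPM (-1.86 ± 0.27). Its adult libraries lay at 0.499 to 1.57 CPM, near the floor of 3 counts. The miR-34 miRNAs with the same seed did not share the fall of the miR-449 miRNAs. MiR-34a-5p, which p53 induces, was at 295, 355, 483, 308 and 347 CPM at PND14 and at 957, 1211, 1063, 1080.4 and 1216 CPM at PND56. It rose without overlap by 1.63 ± 0.14 (adjusted p = 1.61e-07 by edgeR). MiR-34b-5p rose by 1.07 ± 0.24 and miR-34c-5p by 0.62 ± 0.17, each more in replicates 4 and 5 than in replicates 1 to 3. MiR-204-5p, the leading miRNA of choroid plexus, went from 836 ± 139 to 1668 ± 233 CPM (1.00 ± 0.12, adjusted p = 4.11e-06 by edgeR), and miR-204-3p rose by 1.10 ± 0.19.

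Vessel and muscle miRNAs rose in part. Of 6 vessel miRNAs, 3 were higher and none lower: miR-145a-5p (232 ± 79.6 to 506 ± 65.2 CPM, 1.17 ± 0.16), miR-145a-3p and miR-143-3p (0.66 ± 0.13), all of smooth muscle. MiR-126a-3p, of endothelium, was not called, at 15107 ± 4159 and 15996 ± 4344 CPM. Of 6 muscle miRNAs, 4 were higher and none lower (miR-1a-3p, miR-133b-3p, miR-206-3p and miR-499-5p), with a median of 0.72, but in replicates 1 to 3 alone 1 was higher and 1 lower. MiR-1a-3p went from 359 ± 92.9 to 704 ± 249.8 CPM (0.94 ± 0.13, adjusted p = 2.81e-05 by edgeR). The miR-206-3p call (0.61 ± 0.20) ended without PND14 replicate 4 or 5 or PND56 replicate 2 or 5 (adjusted p 0.0522 to 0.114). The muscle list summed to 326 to 557 CPM at PND14 and 588 to 1107 CPM at PND56.

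Lists of other cells that the dissection could hold had few calls. Of 7 microglial and leukocyte miRNAs only miR-142a-3p was called, at -0.44 ± 0.13, and their sum was 5539 to 8510 CPM at PND14 and 5153 to 8635 CPM at PND56. Without PND56 replicate 2 the count was 2 lower, and without PND56 replicate 5 there was 1 higher. None of the 7 erythroid rows was called (2 were lower without PND56 replicate 1), with sums of 478 to 1184 and 488 to 748 CPM. Of 9 miRNAs of pituitary and sensory cells, miR-429-3p alone was lower (-0.61 ± 0.22, adjusted p = 0.0363 by edgeR), a call that ended without any 1 of 6 libraries (PND14 replicate 2 or 3, PND56 replicate 1, 2, 3 or 5). Leaving out PND56 replicate 4 gave 2 lower. The sums of that list were 359 to 712 CPM and 315 to 652 CPM. MiR-122-5p, the miRNA of liver, was at 20.7 to 48.6 and 32.0 to 47.1 CPM. None of the 3 tested miRNAs of hindbrain and spinal cord was called, and their sum was 24.6 to 53.9 CPM at PND14 and 40.3 to 235 CPM at PND56, PND56 replicate 1 being the high library. The part of these cells in the differences above was not tested.

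The imprinted Dlk1-Dio3 region on chromosome 12, whose miRNAs are made from the maternal copy and are abundant in developing brain, held the largest number of decreases of the lists used here, and it is also the largest list. Of its 90 tested miRNAs, 46 were lower and 7 higher at PND56, with a median of -0.47 (-0.76 in the miR-17-92 list). Over all tested miRNAs 22.7% were lower and 22% higher. Of the 46, 22 did not overlap between ages. Over all 704 miRNAs, 160 were lower and 74 were lower without overlap, so that share was not particular to this region. The counts were 42 lower and 6 higher in replicates 1 to 3 alone, and 46 and 21 in replicates 4 and 5 alone. MiR-323-3p was at 4995, 3917, 3978, 5213 and 4585 CPM in PND14 replicates 1 to 5 and at 550.3, 473, 434, 477 and 512 CPM in those of PND56. The ages did not overlap (-3.21 ± 0.12, adjusted p = 1.08e-11 by edgeR), and the replicates of an age lay close together. MiR-409-3p went from 1978 ± 336 to 551 ± 39.6 CPM (SD, n = 5; -1.83 ± 0.12), miR-412-5p from 678 ± 79.8 to 201 ± 31.7 CPM (-1.76 ± 0.12) and miR-487b-3p from 3620.5 ± 1090.1 to 974 ± 272 CPM (-1.87 ± 0.23). MiR-1188-5p fell by 2.64 ± 0.19 from 73.5 ± 11.4 CPM, and miR-134-5p, known for restraining the growth of dendritic spines, fell by 0.98 ± 0.11 from 2065 ± 188 CPM.

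The 7 members that rose were miR-376b-5p, miR-381-3p, miR-381-5p, miR-300-5p, miR-127-3p, miR-127-5p and miR-540-5p. MiR-376b-5p stood at 588, 757, 955, 619.9 and 742 CPM at PND14 and at 1294, 2279.5, 2212, 2543 and 2908 CPM at PND56. It rose without overlap by 1.58 ± 0.20 (adjusted p = 7.81e-06 by edgeR). MiR-127-3p, made opposite the Rtl1 coding exon, rose by 0.57 ± 0.14 from 16441 ± 3833 to 24223 ± 2277 CPM, a difference of 0.88 in replicates 1 to 3 but 0.06 in the other naming style. The miR-540-5p call (0.69 ± 0.27) ended when any 1 library other than PND14 replicate 2 or PND56 replicate 2 was left out. Along the chromosome, 84 of the 90 could be placed, in 3 blocks set apart by the widest gaps. The block from miR-770-5p to miR-136-3p had 10 of 21 lower and 3 higher, with a summed mean of 45837 CPM at PND14 and 44974 CPM at PND56. The long block from miR-379-5p to miR-3072-3p had 33 of 58 lower and 4 higher, and its sum went from 62673 to 43805 CPM. The short block between them, from miR-341-5p to miR-370-3p, had 2 of 5 lower. Within the long block the 4 that rose (miR-376b-5p, miR-300-5p, miR-381-5p and miR-381-3p) lie within ranks 52 to 59 of the 84, and no miRNA from rank 50 to 59 was called lower. This stretch was marked out after its values were seen. Some of its members turned with naming style, as miR-376b-3p (-0.26 in replicates 1 to 3, 2.07 in replicates 4 and 5) and miR-376a-3p (-0.68 and 1.34). The 4 that rose did so in both.

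**Figure D3:**
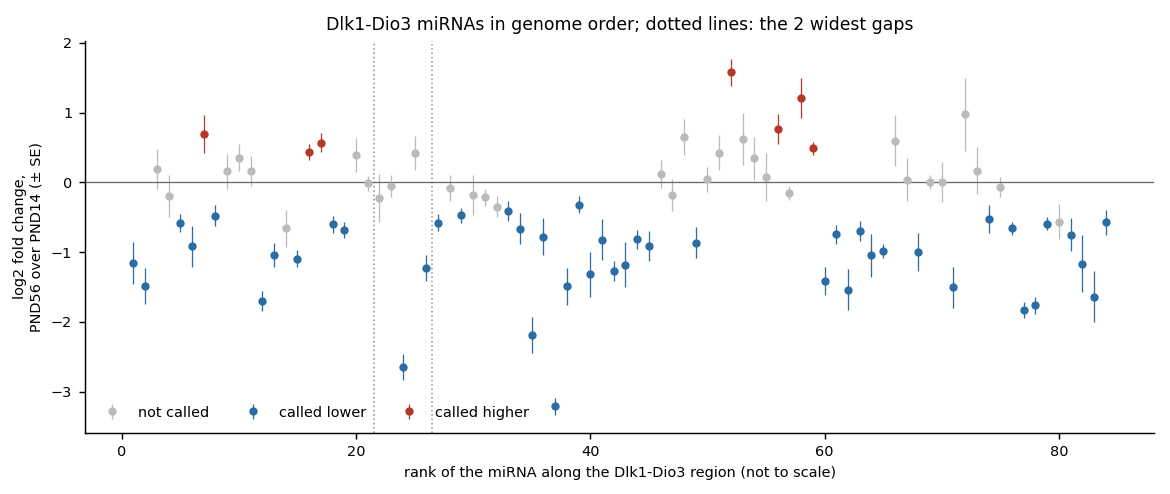
Log2 fold change (± SE) of PND56 over PND14 for the 84 placed Dlk1-Dio3 miRNAs against their rank along the region, coloured by call; dotted lines mark the widest gaps. Called decreases lie in all 3 blocks but none from rank 50 to 59, a stretch marked out after the values were seen, and the 4 called increases of the long block lie within ranks 52 to 59.

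A run of 12 tested miRNAs from 7 hairpins on chromosome X (chrX:53048008-53054327, minus strand, between annotated genes) fell together. It holds the miR-450, miR-542, miR-351, miR-503 and miR-322 hairpins, and it was picked out after its values were seen, from 17 such runs of at least 4 tested miRNAs. Lower at PND56 were 10 of the 12, of which 8 did not overlap, with a median of -1.15 and a sum of 1689.9 CPM at PND14 and 759 CPM at PND56. MiR-542-3p was at 66.0, 58.4, 70.4, 80.2 and 80.6 CPM at PND14 and at 33.9, 35.6, 24.4, 32.2 and 28.7 CPM at PND56. Its ages did not overlap (-1.18 ± 0.16, adjusted p = 1.57e-05 by edgeR). MiR-351-5p fell by 1.42 ± 0.19 without overlap. MiR-322-5p, the mouse counterpart of human miR-424 and a repressor of cell cycle genes, was at 1353, 1339.5, 1619.7, 766 and 702 CPM at PND14. At PND56 it was at 867, 609, 525, 341 and 315 CPM. It fell by 1.13 ± 0.16, and its ages overlapped because the juvenile replicates 4 and 5 lay below the highest adult library. By naming style the median of the run was -1.11 (replicates 1 to 3) and -1.19 (replicates 4 and 5).

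The miR-15/16 family list, which holds miR-322-5p by seed and also miR-503-5p, was divided in direction. MiR-503-5p is not among the 7 tested miRNAs with the seed AGCAGCA. Of 14 members, 6 were lower (both arms of miR-15b, miR-322 and miR-503) and 4 higher (miR-16-5p, miR-16-1-3p, miR-195a-5p and miR-195b). The shares over all tested miRNAs were 22.7% lower and 22% higher. MiR-15b-5p, from an intron of the chromosome condensation gene Smc4, fell by 0.74 ± 0.17 (331 ± 116 to 189.9 ± 33.4 CPM). MiR-195a-5p rose by 0.63 ± 0.11 (251 ± 59.9 to 394 ± 124 CPM). MiR-16-5p, the most abundant member, went from 14005 ± 3557 to 18208 ± 5495 CPM (0.37 ± 0.11, adjusted p = 0.0135 by edgeR). It is made from a hairpin in an exon of Dleu2 and from another in an intron of Smc4, beside miR-15b, and its counts do not tell them apart. Its call ended without PND14 replicate 4 or PND56 replicate 2 (0.0633 and 0.092).

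The miR-17-92 cluster and its paralogs, which promote proliferation, were lower in 12 of 20 members and higher in none (median -0.76). With at least 10 CPM required in 5 libraries, 7 of 11 were lower, and in replicates 4 and 5 alone 3 members were higher. The size depended on naming style, with a median of -1.28 in replicates 1 to 3 and -0.30 in replicates 4 and 5. MiR-20a-5p was at 741, 948, 873, 287 and 274 CPM in PND14 replicates 1 to 5 and at 257, 210.0, 267, 267 and 272 CPM in those of PND56. The ages did not overlap, but juvenile replicates 4 and 5 lay just above the highest adult library, and replicates 1 to 3 held nearly all of the distance. The fit gave -1.15 ± 0.26 (adjusted p = 0.00188 by edgeR). MiR-106b-5p, with the same seed, was not called and differed in opposite directions by naming style, -0.87 in replicates 1 to 3 and 1.43 in replicates 4 and 5. MiR-17-5p fell by 0.75 ± 0.26 (adjusted p = 0.0306 by edgeR), a call that ended without PND14 replicate 2 (0.0698) or PND56 replicate 1 (0.0771). Its difference was -1.33 in replicates 1 to 3 alone and 0.13, in the opposite direction, in replicates 4 and 5 alone. Among the 7 measured relatives of miR-130 and miR-301, 3 were lower and none higher, with medians of -0.96 and 0.17 in the naming styles. MiR-130a-3p fell by 1.27 ± 0.18, from 1327, 1437, 1507, 455 and 420.1 CPM to 374, 544, 530.1, 267 and 252 CPM. Its ages overlapped across naming styles but not within either. Without PND14 replicate 5 the family count was 5 lower.

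Among miRNAs linked by earlier work to GnRH neurons or puberty, 7 of 16 were higher and 1 lower at PND56. Over all tested miRNAs 22% were higher and 22.7% lower. The median of that list was 0.16, or -0.02 with scaling to total counts. The 7 were miR-132-3p and miR-212-3p and the 5p arms of miR-30a, miR-30b, miR-30c, miR-30d and miR-30e, which are held to repress the puberty brake Mkrn3. The 1 lower was miR-429-3p of the miR-200 family, which acts in GnRH neurons, a call that ended without any 1 of the 6 libraries given above. Without PND14 replicate 2 or PND56 replicate 2 or 3 no member was lower, and with total-count scaling 3 were. MiR-7b-5p was not called (-0.15 ± 0.18).

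The PND35 libraries placed part of the difference within the first or the second 21 days. Of the 315 called miRNAs, 190 were also called from PND14 to PND35 and 30 from PND35 to PND56, with 21 in both and 116 in neither; the intervals share the PND35 libraries. The test of whether the later interval differed from the earlier one called 24 of 704 miRNAs (3.41%), and 119 had an unadjusted p below 0.05. MiR-338-3p rose by 2.59 ± 0.19 from PND14 to PND35, and its later difference of 0.45 ± 0.17 was not called (adjusted p = 9.04e-04 for the difference of intervals, by edgeR). MiR-212-3p rose by 1.22 ± 0.15 and then differed by -0.06 ± 0.15. MiR-409-3p fell by 1.62 ± 0.12 and then differed by -0.21 ± 0.12, and miR-1188-5p fell by 2.41 ± 0.18 and then differed by -0.23 ± 0.18. The earlier difference was the larger in 23 of the 24. MiR-129b-3p was the 1 miRNA whose later interval was the larger (-0.26 ± 0.14, then 0.77 ± 0.14).

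Others kept changing through both intervals. MiR-30a-5p rose by 0.64 ± 0.18 and then by 0.88 ± 0.18, miR-30e-5p by 0.91 ± 0.19 and then 0.87 ± 0.19. MiR-449a-5p fell by 2.06 ± 0.28 and then by 1.67 ± 0.27. MiR-323-3p fell in both intervals, by 2.02 ± 0.12 and then by 1.19 ± 0.11, and the difference of intervals was also called (adjusted p = 0.0225 by edgeR). MiR-412-5p fell by 0.75 ± 0.12 and then by 1.01 ± 0.12.

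The size of the age difference varied with naming style for 225 of the 704 miRNAs (32%; edgeR test of the interaction), 84 of them among the 315 called for age. That count was 98 without PND14 replicate 5, 139 without PND14 replicate 4 and 127 without PND56 replicate 5. Of the 315, 302 had the same sign in replicates 1 to 3 as in replicates 4 and 5. They were called over these same libraries, which favours a shared sign. The interaction was also called for 141 of the miRNAs not called for age. Fitted apart, replicates 1 to 3 gave 286 calls and replicates 4 and 5 gave 411, of which 184 were common (64.3% and 44.8% of the calls). Of these 184, 155 had the same direction and 29 the opposite one. None of the 29 was called over all libraries, where opposite directions offset each other. MiR-328-3p (1.57 and -1.02) and miR-19b-3p (-1.46 and 1.10) were among the 29. The Sfmbt2 cluster, 44 tested rows (36 distinct) from a repeat within that gene, had medians of -0.41 and 0.59 and only 5 calls, 3 higher and 2 lower. Without PND14 replicate 5 these were 1 higher and 7 lower, and without PND14 replicate 4 there was 1 higher.

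**Figure D4:**
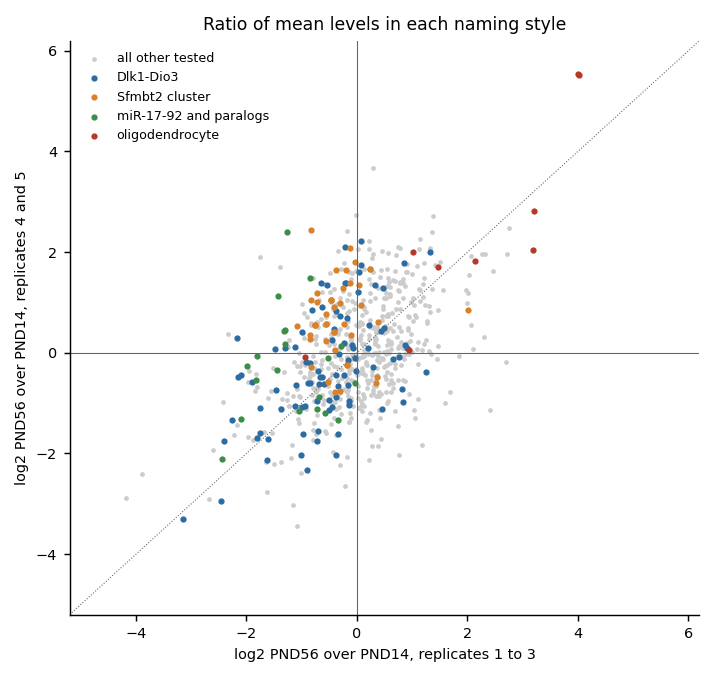
Log2 ratio of mean PND56 to mean PND14 level in replicates 4 and 5 against that in replicates 1 to 3, 1 point per tested miRNA, with list members coloured; miR-7070-3p, at 0 counts in PND56 replicates 4 and 5, is not drawn. Of the 9 oligodendrocyte miRNAs, 8 lie above 0 on both axes, while the miR-17-92 list spreads across 0 on the axis of replicates 4 and 5 (median -0.30).

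Base composition moved with the naming-style difference. Over the 592 tested miRNAs with a RefSeq sequence, the GC content of the mature sequence had a Spearman correlation of -0.42 (Pearson -0.41) with the style difference, of 0.01 with the age ratio in replicates 1 to 3 and of -0.40 with that in replicates 4 and 5. These are correlations across miRNAs of the same 10 libraries, given as a description. The 159 miRNAs with a GC content of 55.0% or more had 23 higher and 61 lower calls (median log2 fold change -0.30), and the 199 with at most 43.5% had 50 and 40 (median 0.05). The 234 between them had 60 and 50 (median 0.07), close to the set with the lowest GC content. All 592 had 133 and 151 (median -0.02). The part of GC content in single differences was not tested.

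The arms of a hairpin come from 1 transcript. Of 174 hairpins with both arms tested, 58 had both arms called, 54 of these in the same direction (23 higher and 31 lower), 66 had 1 arm called and 50 had none. The log2 fold changes of the arms had the same sign in 133 hairpins (76.4%). The 4 hairpins with arms called in opposite directions were those of miR-137 (5p -0.73 ± 0.15, 3p 0.29 ± 0.11), miR-448 (5p 0.45 ± 0.16, 3p -0.72 ± 0.12), miR-540 (5p 0.69 ± 0.27, 3p -0.48 ± 0.16) and miR-7080 (5p -0.64 ± 0.20, 3p 1.13 ± 0.43). In each the call of the smaller or less certain arm (miR-137-3p, miR-448-5p, miR-540-5p, miR-7080-3p) ended when any 1 of 7 or more of the 10 libraries was left out. The miR-540-3p call also ended without PND56 replicate 4 or 5 (adjusted p = 0.0893 and 0.0747 by edgeR), and the miR-7080-5p call without PND14 replicate 1 or PND56 replicate 4 (0.0678 and 0.0625).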

How the data were processed

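Per the labels' protocols, RNA came from mirVana isolation of hypothalamic tissue and libraries from the QIAseq miRNA kit. The authors deposited raw counts, whole numbers for every mature miRNA in every library. Trim Galore, Bowtie, DESeq2 and the build mm10 were used, per the submitters' processing notes. Not given in the sources used here are the counting program, the miRNA annotation, any collapsing of molecular identifiers and the use of strand for overlapping hairpins.

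All 15 libraries entered 1 edgeR 4.0.16 fit (R 4.3.3) with age and naming style as terms, TMM scaling, and a filter on low counts by age (minimum count 10, minimum total 15). Adjusted p is Benjamini-Hochberg over the 704 miRNAs tested, and a call is an adjusted p below 0.05. SE equals |log2 fold change| over the square root of F. No pair of libraries of an age agreed within sampling noise (smallest chi-square per degree of freedom 12.4). On simulated counts of the 704 miRNAs, 79% of 2-fold and 100% of 4-fold differences between PND56 and PND14 were recovered. The simulated counts held no effect of naming style and no interaction of it with age, unlike the data. Alternatives were other scalings and filters, DESeq2 1.42.0, limma-voom (limma 3.58.1), other terms or libraries, and each library left out.

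The naming rule took calls whose mean reached 10 CPM at the age with more and whose direction both naming styles shared: 12 increases and 12 decreases by size, and 8 by p. It added 3 members by p and the most abundant one per list, the 5 most abundant miRNAs per age and 5 by p for the difference of intervals. A further 42 were picked for naming after their values were known. The comparison and the lists were chosen with earlier results of these data known. Sequences are RefSeq's (GRCm38.p6), found for 592 of the 704, and annotation is GENCODE M21. Sequences of chromosome 18 are not reported here.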

Additional observations from a re-analysis of the deposited data

Results flagged for a closer look

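In 11 of 280 groups of 5 libraries tested (Dixon's criterion, which chance meets in about 1 of 20 groups), a single library stood far from the other 4. MiR-10b-5p, of caudal nervous tissue, was at 171 CPM in PND56 replicate 1 and 17.6 to 28.1 CPM in the others. MiR-196a-5p, from the same gene clusters, was at 7.96 CPM in that library and 0.328 to 1.50 CPM in the others, and miR-503-5p was at 129 CPM there against 21.7 to 42.2 CPM. MiR-183-5p (72.2 CPM, others 16.8 to 22.3) and miR-429-3p (73.8 CPM, others 31.0 to 36.2), both of the pituitary and sensory list, were high in PND56 replicate 4. MiR-219a-5p (230.3 CPM) and its opposite-strand row miR-219b-3p (230.4 CPM) were high in PND56 replicate 3, the others lying at 157 to 173 CPM. PND56 replicate 2 was low for miR-29a-5p (29.6 CPM, others 52.4 to 60.4) and miR-20a-5p (210.0 CPM, others 257 to 272) and high for miR-669k-5p (6.78 CPM, others 4.04 to 4.83). MiR-9-5p was at 140896 CPM in PND14 replicate 3 and 123207 to 126875 CPM in the others.

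The change from PND14 to PND56 differed between naming styles for 225 of the 704 miRNAs tested, 40 of them named here (adjusted p 0.00145 to 0.0484 by edgeR's test of the interaction). The values are the log2 change in replicates 4 and 5 minus that in replicates 1 to 3. In the miR-17 and miR-130 groups this difference was 2.56 for miR-19b-3p, 2.32 for miR-106b-5p, 1.75 for miR-20a-5p, 1.46 for miR-17-5p, 1.29 for miR-17-3p, 1.09 for miR-130b-3p, 0.94 for miR-301b-3p, 0.91 for miR-301a-3p and 0.81 for miR-130a-3p. In the miR-30 family it was 1.62 for miR-30b-5p, 1.04 for miR-30e-5p, 0.95 for miR-30a-5p and 0.85 for miR-30c-5p. For the seed of miR-34 and miR-449 it was 1.56 for miR-34b-5p, 0.94 for miR-34c-5p and 1.29 for miR-449a-5p. Among the oligodendrocyte miRNAs it was 1.52 for miR-219a-5p and 1.50 for miR-219b-3p, and -0.89 for miR-219a-2-3p and -1.13 for miR-219b-5p. Other positive differences were 1.56 for miR-124-3p, 1.45 for miR-670-5p, 1.43 for miR-669a-3p, 1.09 for miR-499-5p, 0.77 for miR-15b-5p, 0.70 for miR-145a-5p and 0.49 for miR-137-3p. Negative ones were -2.59 for miR-328-3p, -1.95 for miR-7080-3p, -1.14 for miR-486a-5p and its identical row miR-486b-5p, -1.09 for miR-7b-5p, -0.88 for miR-342-3p, -0.85 for miR-29a-3p, -0.81 for miR-127-3p and miR-540-3p, -0.80 for miR-150-5p, -0.72 for let-7f-5p, -0.63 for miR-129b-3p and -0.57 for let-7c-5p. What the naming stands for is not given in the sources used here.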

How the results depend on the processing

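Over the alternatives run, the count of called miRNAs was 228 to 411 against 315. It was 268 to 318 with any 1 library of the 2 ages left out, and 224 miRNAs were called in all 10 of those fits. It was 315 with RLE scaling, 309 with total-count scaling, 330 without the filter, 228 with at least 10 CPM in 5 libraries, 325 with DESeq2, 315 with limma-voom, 232 without the naming style term, 254 with PND14 and PND56 alone and 305 with identical rows counted once. No called miRNA changed sign except 12 in replicates 4 and 5 alone. With the replicate number as a block the count was 292, of which 288 were shared with the same sign. The numbers are not known to pair libraries. Deviations of same-numbered libraries from the age means correlated at -0.19 to 0.57, and 3 of 5 numbers correlated best with themselves. With naming style removed as well, the correlations were -0.48 to 0.38, and replicates 4 and 5 then necessarily give the same value. Total-count scaling ended the calls of miR-16-5p, miR-34c-5p, miR-132-3p, miR-30b-5p, miR-206-3p, miR-300-5p and miR-219a-2-3p. The difference between naming styles gave 98 to 267 calls with 1 library left out against 225, and the difference of intervals 16 to 35 against 24. In replicates 4 and 5 alone, PND56 libraries differed from PND14 by -5413480 in total counts, -134 in miRNAs detected and -6.50 points in the share of the top 10, the last being -0.57 in replicates 1 to 3. Signs turned, with no cause tested, in replicates 1 to 3 alone for miR-106b-5p (-0.87), miR-124-3p (-0.10), miR-125b-5p (0.051), miR-342-3p (0.14), miR-7b-5p (0.26) and miR-486a-5p and miR-486b-5p (0.073). In replicates 4 and 5 alone they turned for miR-126a-3p (-0.028), miR-150-5p (-0.10), miR-122-5p (-0.30), miR-301a-3p (0.13), let-7c-5p (-0.15), miR-9b-3p (-0.042), miR-17-5p (0.13), miR-19b-3p (1.10) and miR-328-3p (-1.02). Total-count scaling turned miR-126a-3p (-0.093), miR-9b-3p (-0.062) and miR-106b-5p (-0.16). MiR-106b-5p was at -0.0070 with the 10 CPM filter, -0.032 with identical rows once and -0.28 to 0.28 with 1 library left out, and miR-126a-3p at -0.11 to 0.16. At the depth of these libraries 3 counts correspond to 0.186 to 0.446 CPM, so levels near that floor carry large counting error.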

Other observations

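Called members of further brain families were counted against the 22% higher and 22.7% lower over all tested miRNAs. In the miR-344 cluster of rodents, 4 of 9 tested members were lower (both arms of miR-344 and miR-344f) and 2 higher (miR-344b-3p and miR-344d-3-5p), with 1 higher without PND14 replicate 1 or 3 or PND56 replicate 2 or 3. MiR-344f-3p was at 26.4 ± 5.86 CPM at PND14 and 12.4 ± 3.00 CPM at PND56 (SD, n = 5; log2 -1.09 ± 0.13, adjusted p = 6.43e-06 by edgeR). MiR-344d-3-5p rose by 1.60 ± 0.35, from 5.40 ± 4.43 to 14.9 ± 8.53 CPM. Of the miR-125, miR-99 and miR-100 miRNAs that accompany let-7, 3 of 10 were lower and 2 higher. The higher count was 1 when PND14 replicate 1, 2, 3 or 4 or PND56 replicate 2, 3 or 4 was left out. Both arms of miR-99b fell, miR-99b-5p by 0.57 ± 0.13 (2746 ± 426 to 1856 ± 238 CPM) and miR-99b-3p by 0.64 ± 0.14, while miR-125b-5p, among the most abundant miRNAs at both ages, was not called (-0.09 ± 0.11). In the miR-181 family the passenger arms miR-181a-2-3p (-0.80 ± 0.14) and miR-181c-3p (-0.65 ± 0.13) were the 2 of 10 called lower, a share near that of all miRNAs, with 4 lower without PND14 replicate 3 or PND56 replicate 5 and 1 higher without PND14 replicate 3. The guide miR-181a-5p was not called (0.57 ± 0.34, adjusted p = 0.192 by edgeR).

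Single miRNAs outside these lists also differed. MiR-135a-1-3p fell from 30.5 ± 6.36 to 4.48 ± 0.619 CPM (-2.76 ± 0.19, adjusted p = 1.24e-08 by edgeR), most of it by PND35 (6.36 ± 1.11 CPM). MiR-1983 fell from 971 ± 318 to 185 ± 44.2 CPM (-2.35 ± 0.19) and was called in both intervals. MiR-1b-5p rose from 43.1 ± 22.3 to 186 ± 72.9 CPM (2.17 ± 0.17). MiR-26a-5p, 1 of the most abundant miRNAs, rose from 26362 ± 8035 to 46549 ± 9942 CPM (0.84 ± 0.09).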
